A study of Mus musculus with 10 samples.

Results

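Immediate early genes are genes whose transcription starts within minutes of a stimulus, without prior protein synthesis, because the transcription factors that switch them on are already in the cell. In the heart they are known to respond to stretch, pressure load, adrenergic stimulation, ischaemia and the handling of the tissue itself, and their short-lived mRNAs fall again soon after the stimulus ends. Most encode transcription factors: the Fos and Jun proteins pair as AP-1, and ATF3, EGR1, NR4A1 and MYC bind DNA sites of their own. The 10 genes described here, Fos, Fosb, Jun, Junb, Jund, Atf3, Egr1, Nr4a1, Ier2 and Myc, were taken by symbol from the count table, as 10 of 57185 genes with counts. All 10 had more than 10 reads in at least 6 of 10 mice, so that all 10 were among the 13452 genes tested.

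Bulk polyA RNA-seq was performed on freeze-clamped tissue from the apical side of the ventricle of 10 male mice, labelled as left ventricle, with 1 library per mouse. MLPKO mice (n = 5) lacked muscle LIM protein, the product of Csrp3, a model of dilated cardiomyopathy, and carried floxed alleles of Rrad (RADfl/fl), the gene for RAD, a protein that holds back the cardiac L-type calcium channel. The cRADΔ/Δ-MLPKO mice (n = 5; MLPKO-cRADKO in the labels) carried the same alleles and a MYH6-MerCreMer transgene, a tamoxifen-activated Cre recombinase driven by a cardiomyocyte promoter, so that RAD was deleted in cardiomyocytes and not in the other cells of the sample. Both groups received a single tamoxifen dose of 100 mg/kg at 10 weeks of age and were collected 1 month later by the treatment label, with an age label of 16 weeks. The control group had no Cre transgene, so that the loss of RAD and the presence of an activated Cre cannot be told apart, and no mouse with an intact Csrp3 gene and no untreated mouse was analysed here.

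Reads assigned to genes ranged from 33457406 to 49965101 per mouse, and the 10 genes together took 0.0142% to 0.0256% of them. MLPKO mouse 2 had the lowest total and stood apart on the first principal component of all genes (35.3% of the variance; score 55.7, against −24.0 to 22.5 in the other 9 mice), and the log2 fold changes, spreads and correlations of the 10 genes are given with and without it where it moves them. Rrad was counted in all mice, at 140 to 282 CPM (read counts scaled to a common library size by TMM) in MLPKO and 135 to 202 in cRADΔ/Δ-MLPKO (log2 fold change −0.38, edgeR adjusted p = 0.290). Csrp3 was counted at 1009 to 3261 CPM in MLPKO, highest in mouse 2, and at 691 to 1177 CPM in cRADΔ/Δ-MLPKO. Its log2 fold change was −1.08 (edgeR adjusted p = 0.0667). These gene totals do not separate deleted from retained exons, and the genotypes rest on the labels. The 6 cardiomyocyte markers (Myh6, Tnnt2, Tnni3, Actn2, Ryr2 and Pln) summed to 48109 to 55866 CPM in MLPKO and 36082 to 47684 in cRADΔ/Δ-MLPKO, with Tnnt2 called lower in the latter, whereas 6 endothelial markers summed to 673 to 758 and 785 to 906 CPM. The 6 mural markers summed to 488 to 610 and 654 to 875 CPM, with Acta2 and Rgs5 called higher in cRADΔ/Δ-MLPKO. The 6 atrial markers, low against the cardiomyocyte sum, summed to 30.9 to 34.6 and 37.6 to 64.4 CPM.

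The promoters of these genes are known for short DNA elements through which preformed factors act: the CArG box, bound by serum response factor, and the cyclic AMP response element, bound by CREB and ATF proteins and, in related forms, by Jun pairs. In the 500 bases before the start of each gene's canonical transcript (GRCm39, GENCODE M39), a CArG box was found at Fos and Fosb, and the full response element TGACGTCA at Jund and Ier2. A related form, TGACATCA, stood before Jun. These 5 stretches are shown because they hold the elements through which immediate early promoters are best known to be switched on, 5′ to 3′ on the strand of the gene, with the matched element in capitals.

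Fos: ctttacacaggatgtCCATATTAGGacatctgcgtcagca
Fosb: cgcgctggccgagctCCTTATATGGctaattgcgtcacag
Jun: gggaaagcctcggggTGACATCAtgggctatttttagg
Jund: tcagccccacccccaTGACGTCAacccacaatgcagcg
Ier2: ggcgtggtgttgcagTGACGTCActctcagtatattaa

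The Fos stretch lies at chr12:85520340-85520379 (+ strand) with its element at −303 to −294 from the start, and the Fosb stretch at chr7:19044218-19044257 (− strand) with its element at −266 to −257. The Jun stretch lies at chr4:94940482-94940519 (− strand; element at −45 to −38), the Jund stretch at chr8:71151370-71151407 (+ strand; −214 to −207) and the Ier2 stretch at chr8:85389504-85389541 (− strand; −43 to −36). Both CArG boxes were followed within the printed stretch by the core response element letters TGACG, read on the other strand as cgtca.

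Over 21766 windows of protein-coding genes searched on both strands, a CArG box was present in 2.76%, TGACGTCA in 1.96% and TGACNTCA, which includes TGACGTCA, in 10.7%. The core TGACG, which is also part of TGACGTCA, was found in 25.8% of windows and in those of 9 of the 10 genes, all but Atf3. The AP-1 site TGANTCA was found in 12.3% of windows and at Fos alone of the 10 genes. The EGR1 site GCGNGGGCG was found in 5.45% of windows and at Fosb, Jun and Jund, and the MYC site CACGTG in 9.68% of windows and at none of the 10. A TATAAA on the gene's strand was found in 15.5% of windows and at Fos and Junb. Each match is a description of the letters in this window and says nothing of binding. The windows rest on the annotated canonical start alone, and other starts and more distant bases were not searched. A window without a match therefore does not show that a gene lacks the element.

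None of the 10 genes passed the test between cRADΔ/Δ-MLPKO and MLPKO. By edgeR's quasi-likelihood test 0 of 10 had an adjusted p under 0.05, against 2.74% of all genes tested (369 of 13452), and 0 of 10 had an unadjusted p under 0.05, against 21.6% of all genes. DESeq2 and limma-voom also called 0 of 10, against 9.65% and 2.53% of all genes, and gave 0 of 10 at an unadjusted p under 0.05. The values of the genotypes overlapped in all 10 genes, whereas 6.61% of all genes had no overlap. A log2 fold change below 0 was found for 8 genes and one above 0 for 2 (median −0.24, against 0.01 over all genes), and without MLPKO mouse 2 these counts were 4 and 6 (median 0.06, against 0.01). In bulk tissue, fewer cells of a type and less RNA per cell cannot be told apart, and the part in these values of the marker sums above, which did not overlap between the genotypes for the cardiomyocyte, endothelial, mural and atrial lists, was not tested.

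**Figure D1:**
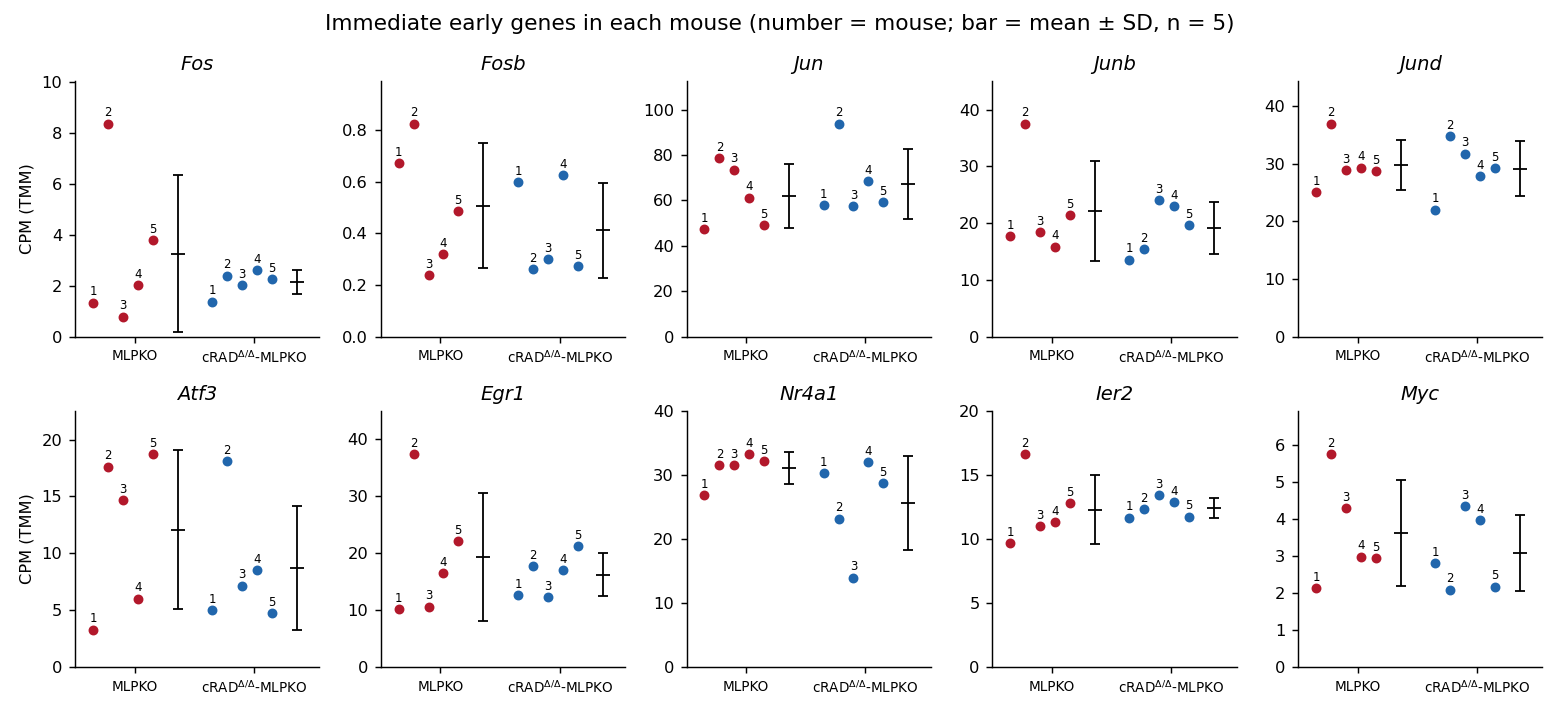
Normalized read count (CPM after TMM scaling, linear axes from 0) of the 10 genes in each of 5 MLPKO (red) and 5 cRADΔ/Δ-MLPKO (blue) mice; numbers are mouse numbers and the black bars beside the points are means ± SD. MLPKO mouse 2 is the highest point for Fos, Fosb, Junb, Jund, Egr1, Ier2 and Myc, and the genotypes overlap in every panel.

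Of the Fos subfamily, which cannot bind DNA without a partner, Fos and Fosb were among the 10 genes. Fos (chromosome 12, 85520658 to 85524047, + strand, 4 exons) was counted at 1.34, 8.37, 0.790, 2.03 and 3.79 CPM in MLPKO mice 1 to 5, and at 1.38, 2.40, 2.02, 2.63 and 2.26 CPM in cRADΔ/Δ-MLPKO mice 1 to 5. The MLPKO mice covered a 10.6-fold range, and all 5 cRADΔ/Δ-MLPKO mice lay inside it within a 1.91-fold range. Means were 3.26 ± 3.07 and 2.14 ± 0.478 CPM (SD, n = 5 each), with a log2 fold change of −0.59 (SE 0.52, 95% interval −1.72 to 0.54, edgeR adjusted p = 0.555), whereas the medians stood the other way at 2.03 and 2.26 CPM. Without MLPKO mouse 2 the MLPKO mean was 1.99 ± 1.31 CPM and the log2 fold change 0.11 (adjusted p = 0.897), and limma-voom, which averages log values, gave −0.00 with all mice.

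Fosb (chromosome 7, 19036621 to 19043976, − strand, 4 exons), its close relative, was the least abundant of the 10 genes, with 11 to 29 reads per mouse. It was counted at 0.670, 0.824, 0.237, 0.320 and 0.485 CPM in MLPKO and at 0.598, 0.261, 0.300, 0.624 and 0.271 CPM in cRADΔ/Δ-MLPKO. High and low mice stood in both genotypes, and the log2 fold change of −0.29 (SE 0.41, edgeR adjusted p = 0.731) had a 95% interval from −1.18 to 0.60. Without MLPKO mouse 2, the highest, it was −0.06.

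The Jun subfamily, whose proteins pair with Fos proteins or with each other, was more abundant than Fos and Fosb. Jun (chromosome 4, 94937271 to 94940459, − strand, 1 exon) was counted at 47.4, 78.6, 73.6, 61.2 and 49.1 CPM in MLPKO and at 58.0, 93.8, 57.5, 68.5 and 59.3 CPM in cRADΔ/Δ-MLPKO. Here the highest mouse was cRADΔ/Δ-MLPKO mouse 2, and MLPKO mouse 2 was second. Its log2 fold change was 0.12 (SE 0.17, 95% interval −0.25 to 0.50, edgeR adjusted p = 0.731), so that the interval covered from 0.840-fold to 1.41-fold. It was 0.22 without MLPKO mouse 2 and −0.022 without cRADΔ/Δ-MLPKO mouse 2.

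Junb (chromosome 8, 85701113 to 85705359, − strand, 1 exon), which often restrains the activity of Jun, was counted at 17.7, 37.5, 18.5, 15.8 and 21.4 CPM in MLPKO and at 13.6, 15.4, 24.0, 23.0 and 19.7 CPM in cRADΔ/Δ-MLPKO. MLPKO mouse 2 stood above all other mice, and the remaining 9 mice lay between 13.6 and 24.0 CPM. The log2 fold change was −0.21 (SE 0.24, edgeR adjusted p = 0.660) with this mouse and 0.06 (adjusted p = 0.870) without it. Junb overlaps Prdx2 on the opposite strand, a gene with 88804 reads over the 10 mice, and whether reads were counted by strand is not given in the sources used here, so that its level is uncertain. The same holds to a lesser degree for Jun, which overlaps the antisense gene Junos with 291 reads over the 10 mice.

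Jund (chromosome 8, 71151599 to 71153265, + strand, 1 exon), the Jun gene known for steady rather than induced expression, had the narrowest range of the 5 Fos and Jun genes described here. It was counted at 25.1, 36.9, 28.9, 29.3 and 28.8 CPM in MLPKO and at 22.1, 34.7, 31.8, 27.8 and 29.3 CPM in cRADΔ/Δ-MLPKO. MLPKO mouse 2 and cRADΔ/Δ-MLPKO mouse 2 were the highest, and the highest of all 10 mice was 1.68 times the lowest. The log2 fold change of −0.03 (SE 0.12, edgeR adjusted p = 0.917) had an interval from −0.30 to 0.24, which covers 0.811-fold to 1.18-fold. It was 0.06 without MLPKO mouse 2.

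Atf3 (chromosome 1, 190902493 to 190950241, − strand, 4 exons), a stress-induced partner and repressor in the ATF/CREB family, was counted at 3.28, 17.6, 14.7, 6.001 and 18.8 CPM in MLPKO and at 4.97, 18.1, 7.16, 8.51 and 4.75 CPM in cRADΔ/Δ-MLPKO. Its values fell at separate levels, with 3 MLPKO mice and 1 cRADΔ/Δ-MLPKO mouse between 14.7 and 18.8 CPM and the other 6 mice between 3.28 and 8.51 CPM. Means were 12.1 ± 7.01 and 8.70 ± 5.49 CPM (SD, n = 5 each), and the medians were 14.7 and 7.16 CPM. The log2 fold change of −0.47 (SE 0.48, 95% interval −1.52 to 0.58, edgeR adjusted p = 0.625) was within the spread between mice. It was −0.29 (adjusted p = 0.784) without MLPKO mouse 2 and −0.92 (adjusted p = 0.287) without cRADΔ/Δ-MLPKO mouse 2, the 1 high mouse of its genotype.

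Egr1 (chromosome 18, 34992876 to 34998049, + strand, 2 exons), a zinc-finger factor induced through serum response factor, was counted at 10.1, 37.3, 10.5, 16.5 and 22.0 CPM in MLPKO and at 12.6, 17.7, 12.2, 17.0 and 21.1 CPM in cRADΔ/Δ-MLPKO. As for Fos, the 5 cRADΔ/Δ-MLPKO mice lay inside the MLPKO range, and the MLPKO mice covered a 3.70-fold range against 1.74-fold. The log2 fold change was −0.25 (SE 0.32, edgeR adjusted p = 0.708) with all mice and 0.13 (adjusted p = 0.804) without MLPKO mouse 2.

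Nr4a1 (chromosome 15, 101151980 to 101172681, + strand, 7 exons), an orphan nuclear receptor also named Nur77, had the smallest p of the 10 genes. It was counted at 26.9, 31.5, 31.5, 33.3 and 32.2 CPM in MLPKO and at 30.3, 23.2, 14.0, 32.0 and 28.8 CPM in cRADΔ/Δ-MLPKO. The 5 MLPKO mice lay close together, and the low values were those of cRADΔ/Δ-MLPKO mice 3 and 2. Means were 31.1 ± 2.47 and 25.6 ± 7.32 CPM (SD, n = 5 each), with a log2 fold change of −0.28 (SE 0.18, 95% interval −0.67 to 0.12, edgeR adjusted p = 0.403). This value was −0.27 without MLPKO mouse 2. Over all mice left out in turn it ran from −0.36 to −0.12, the latter without cRADΔ/Δ-MLPKO mouse 3. Nr4a1 overlaps Gm56721 on the same strand, a gene with 180 reads over the 10 mice. The part of this overlap in the level of Nr4a1 was not tested.

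Ier2 (chromosome 8, 85387960 to 85389483, − strand, 1 exon), a small nuclear protein of the serum-induced class, was counted at 9.71, 16.7, 11.01, 11.3 and 12.8 CPM in MLPKO and at 11.7, 12.4, 13.4, 12.9 and 11.8 CPM in cRADΔ/Δ-MLPKO. The cRADΔ/Δ-MLPKO mice lay within a 1.15-fold range, the narrowest of any of the 10 genes in either genotype. Ier2 had a log2 fold change of 0.02 (SE 0.13, 95% interval −0.26 to 0.30, edgeR adjusted p = 0.958), which was 0.15 without MLPKO mouse 2.

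Myc (chromosome 15, 61857227 to 61862223, + strand, 3 exons), the growth-promoting factor that acts with MAX, was counted at 2.13, 5.77, 4.30, 2.99 and 2.93 CPM in MLPKO and at 2.81, 2.09, 4.34, 3.96 and 2.17 CPM in cRADΔ/Δ-MLPKO, from 92 to 218 reads per mouse. MLPKO mouse 2 was again highest, and the log2 fold change of −0.23 (SE 0.29, edgeR adjusted p = 0.693) was −0.01 without it.

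**Figure D2:**
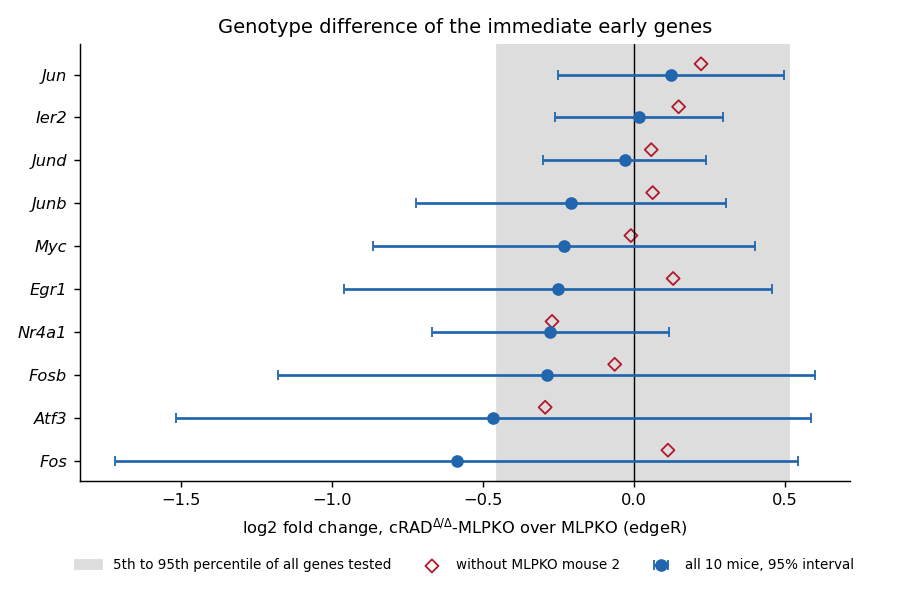
Log2 fold change of cRADΔ/Δ-MLPKO over MLPKO for the 10 genes with all 10 mice (blue points; bars are 95% intervals from edgeR) and without MLPKO mouse 2 (red diamonds). The grey band holds the 5th to 95th percentile of all 13452 genes tested (−0.45 to 0.51), and every interval crosses 0.

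To compare levels between genes, counts were divided by the summed length of each gene's exons (CPM per kb, mean ± SD over 10 mice). Jun (20.3 ± 4.46) and Jund (17.7 ± 2.58) stood highest, followed by Junb (8.67 ± 2.86) and Ier2 (8.11 ± 1.22), then Atf3 (4.25 ± 2.54), Egr1 (3.94 ± 1.79) and Nr4a1 (2.60 ± 0.541). Myc (1.23 ± 0.443), Fos (1.15 ± 0.913) and Fosb (0.0735 ± 0.0335) stood lowest. Thus, for the Fos and Jun genes among the 10, the level per kb was mostly that of the Jun subfamily, and Jun was above Fos in every mouse. Fosl2, a further Fos gene outside the 10, stood at 3.42 CPM per kb. Neighbours in this order were separated by more than both of their SDs at 4 steps, from Jund to Junb, from Ier2 to Atf3, from Nr4a1 to Myc and from Fos to Fosb. Of these 4 steps, Nr4a1 over Myc held in 9 of 10 mice and the rest held in all 10. At the other 5 steps the order was not the same in all 10 mice, as for Jun over Jund in 7 of 10 mice, Atf3 over Egr1 in 4 of 10 and Myc over Fos in 6 of 10. The place of Nr4a1 depended on the length used, since its annotated exons cover 10903 bases and its canonical transcript 2548, and with the latter its level was 11.1 CPM per kb, beside 11.4 for Junb.

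The 10 genes varied more between mice of a genotype than most genes. The SD of log2 CPM within a genotype had a median of 0.47 over the 10 genes, against 0.18 over all genes tested, and 59.3 was the lowest percentile that any of the 10 held among all genes. Fos (percentile 98.4), Atf3 (98.5), Fosb (93.2) and Egr1 (92.7) stood above the 90th percentile, and Ier2 (59.3) and Jund (60.8) were lowest. Fosb and Fos rested on as few as 11 and 40 reads in a mouse, whereas Atf3 and Egr1 were covered by at least 142 and 420 reads in every mouse. Low counts were even in 73.7% to 80.3% of cases per mouse, against 51.0% to 56.5% of high counts. Whether both reads of a pair were counted is not given in the sources used here, so separate fragments may be fewer than reads. Without MLPKO mouse 2, Fos (96.7), Fosb (93.2) and Atf3 (99.1) stayed above the 90th percentile, Egr1 moved to 87.6 and Ier2 to 38.6. The SD was larger in MLPKO than in cRADΔ/Δ-MLPKO for 8 of the 10 genes, as it was for 61.9% of all genes. Without MLPKO mouse 2 this held for 5 of the 10 genes, no longer for Jun, Junb and Myc, and for 51.2% of all genes. With all mice, Jund and Nr4a1 were the exceptions, with SDs of log2 CPM for Nr4a1 of 0.12 in MLPKO and 0.49 in cRADΔ/Δ-MLPKO. The difference in spread was not tested.

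**Figure D3:**
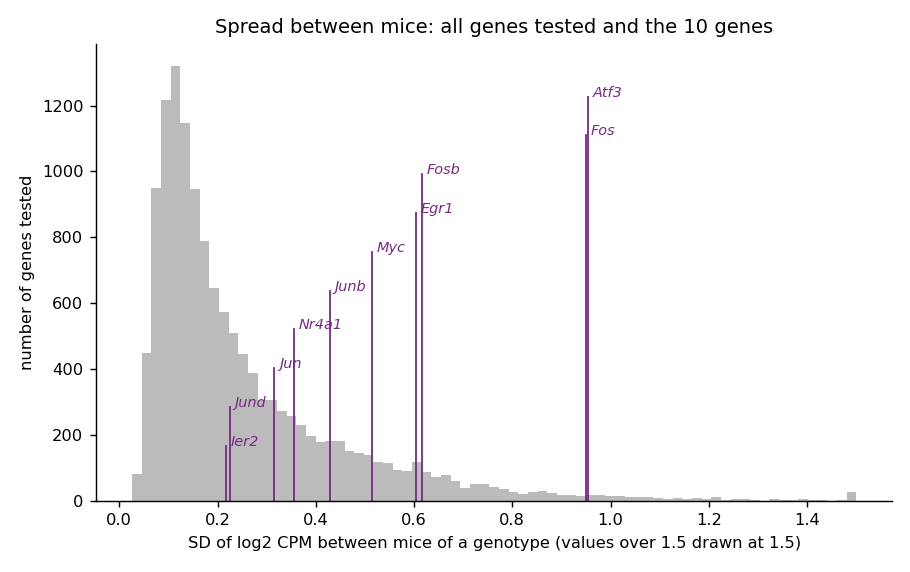
Histogram of the SD of log2 CPM between mice of a genotype over 13452 genes tested (x axis, values over 1.5 drawn at 1.5; y axis, number of genes), with the 10 genes marked by lines whose height carries no value. Atf3 and Fos lie far in the right tail, and Ier2 and Jund lie nearest to the bulk of genes.

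The mice that carried this spread were in part the same across genes. MLPKO mouse 2 was the highest of all 10 mice for 7 genes (Fos, Fosb, Junb, Jund, Egr1, Ier2 and Myc) and among the highest 3 for 9, with a mean z-score over the 10 genes of 1.60. MLPKO mouse 1 was the lowest for 4 genes (Jun, Egr1, Atf3 and Ier2) and among the lowest 3 for 8, with a mean z-score of −0.81. The extremes of the set therefore both fell in the MLPKO group, and the 5 cRADΔ/Δ-MLPKO mice had mean z-scores between −0.55 and 0.33. MLPKO mouse 2 also had the highest cardiomyocyte marker sum (55866 CPM), the highest sum of 5 erythroid genes (2798 CPM, against 288 for the lowest mouse) and the second highest fibroblast sum (1511 CPM), and the part of these in the result was not tested. Nr4a1 did not follow this order, with its highest value in MLPKO mouse 4 and its lowest in cRADΔ/Δ-MLPKO mouse 3.

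**Figure D4:**
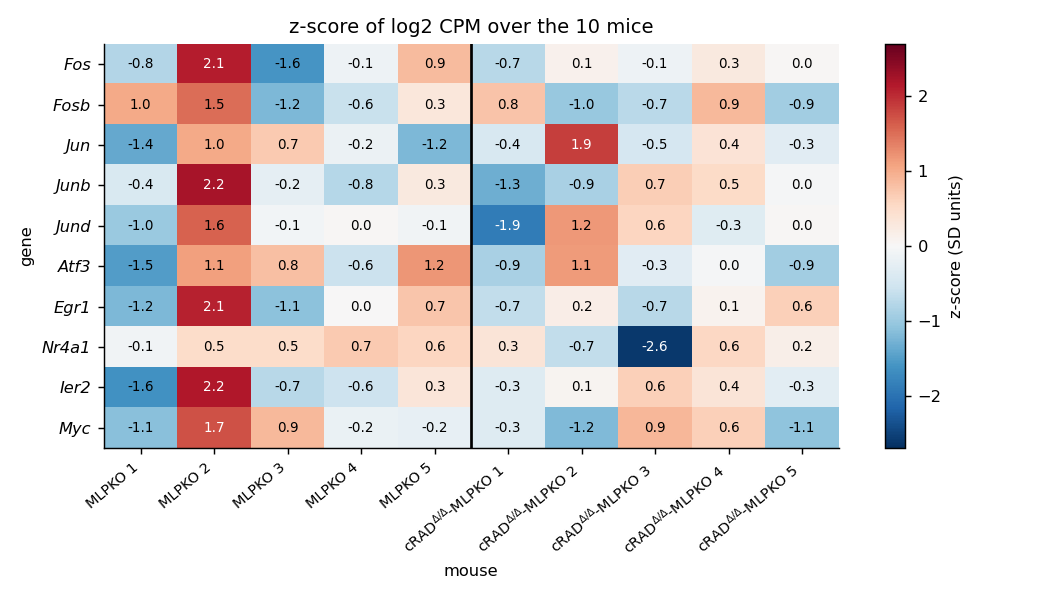
z-score of log2 CPM of each of the 10 genes over the 10 mice (rows are genes, columns are mice, red above and blue below the gene's mean). The column of MLPKO mouse 2 is red in every row, and the column of MLPKO mouse 1 is blue in every row but Fosb.

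Of the 45 pairs of genes, 38 had a Pearson r above 0 over the 10 mice, with a median of 0.396 and a range from −0.254 to 0.931. Without MLPKO mouse 2, 28 of the 45 had an r above 0 and the median was 0.164. After Benjamini-Hochberg adjustment over the 45 pairs, 1 pair passed by r and by rho, and 10 pairs had an unadjusted permutation p of r under 0.05. That pair was Fos and Egr1 (Pearson r = 0.931, permutation adjusted p = 0.00765, Spearman rho = 0.927, permutation adjusted p = 0.0180, 100000 resamples). Both are known targets of serum response factor. In the windows before the canonical starts a CArG box was found at Fos and not at Egr1. Other starts and more distant bases were not searched, so this does not show that Egr1 lacks the element. The factor's part in the correlation was not tested. Without the 2 mice farthest from the median of Fos, MLPKO mice 2 and 3, r was 0.847, without MLPKO mouse 2 alone it was 0.852, and after the mean of each genotype was subtracted it was 0.931. The next pair, Fos and Ier2, had r = 0.845 (permutation adjusted p = 0.115), which was 0.674 without the same 2 mice. Junb and Egr1 (r = 0.641, permutation adjusted p = 0.178) rested on the 2 extreme mice of Junb, without which r was 0.0521. Within the Jun subfamily Jun and Junb did not vary together in a way that could be detected (r = 0.142), and the lowest r was that of Fosb and Jun.

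**Figure D5:**
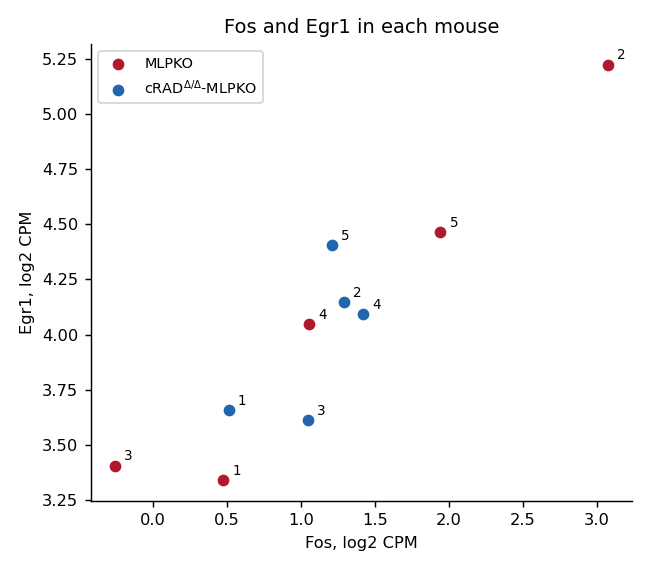
Egr1 against Fos in each mouse, both as log2 CPM (red, MLPKO; blue, cRADΔ/Δ-MLPKO; numbers are mouse numbers). The mice of both genotypes lie along 1 rising band, with MLPKO mouse 2 at its upper end.

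The genes whose pattern over the 10 mice was most like the mean z-score of the 10 genes were Calm3 (Pearson r = 0.930), Csrnp1 (0.928), Rac1 (0.924), Btf3-ps1 (0.916), Fosl2 (0.912), Abitram (0.909), Bend7 (0.908) and Lnx2 (0.897), as a description over 10 mice. The 8 genes were each highest in MLPKO mouse 2, and without that mouse their r ran from 0.645 to 0.869 and 0 of the 8 were among the 8 most alike. Calm3 encodes calmodulin, Rac1 a small GTPase, Fosl2 a further Fos protein and Csrnp1 a nuclear protein of the immediate early class. None of the 8 passed the test between genotypes.

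Among 121 further genes of the pathway, in 5 lists, 116 were tested and 2 were called, both lower in cRADΔ/Δ-MLPKO, against 1.80% of all genes called lower and 0.944% called higher. Of the AP-1 relatives 0 of 11 tested were called (3 at an unadjusted p under 0.05, median log2 fold change 0.05), and of the EGR, NR4A and MYC relatives and partners 0 of 15 (3 unadjusted, median 0.09). Of the other immediate early genes 1 of 43 was called (10 unadjusted, median 0.01), of the upstream factors and kinases 1 of 28 (5 unadjusted, median −0.00), and of the integrated stress response, the pathway in which ATF4 induces Atf3, 0 of 19 (4 unadjusted, median 0.08). Over the 5 lists 25 of 116 genes had an unadjusted p under 0.05, or 21.6%, the same share as among all genes tested. By DESeq2 11 of the 116 were called, 7 lower (Arc, Egr3, Gdf15, Dusp4, Mafk, Map2k3 and Mcl1) and 4 higher (Klf4, Eif2ak4, Maf and Rgs2), and by limma-voom 1 (Map2k3). The DESeq2 share of 9.48% stood beside 9.65% of all genes by DESeq2. The 5 genes left out for low counts were Fosl1, Batf3, Egr4, Dusp2 and Fgf21, with at most 18 reads in any mouse, and Egr4 was at 0 in all mice.

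Arc (chromosome 15, 74540932 to 74544419, − strand), an immediate early gene best known at synapses, was the first of these, at 6.80, 11.8, 4.42, 4.75 and 9.66 CPM in MLPKO and at 4.01, 2.61, 2.02, 4.25 and 2.40 CPM in cRADΔ/Δ-MLPKO. All MLPKO mice were above all cRADΔ/Δ-MLPKO mice, by a narrow margin between 4.42 and 4.25 CPM. Its log2 fold change was −1.29 (SE 0.30, edgeR adjusted p = 0.0476), and the call held in 2 of 10 fits that left out a mouse, with adjusted p from 0.000712 to 0.116 over all alternatives. It was lost without MLPKO mouse 1, 2 or 5 or any one of the 5 cRADΔ/Δ-MLPKO mice.

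Map2k3 (chromosome 11, 60821766 to 60843637, + strand), a kinase that activates p38, was at 79.2, 89.7, 74.5, 78.9 and 77.6 CPM in MLPKO and at 59.3, 64.8, 65.0, 69.1 and 65.8 CPM in cRADΔ/Δ-MLPKO. The groups did not overlap, and the log2 fold change was −0.30 (SE 0.06, edgeR adjusted p = 0.0314). This call held in 3 of 10 fits that left out a mouse and was lost without MLPKO mouse 1 or 5 or any one of the 5 cRADΔ/Δ-MLPKO mice, with adjusted p up to 0.0775.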

How the data were processed

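RNA was extracted from ventricle of 10 mice and sequenced after polyA selection. The deposited table holds raw read counts per Ensembl gene, which the authors made from FastQC-checked reads with STAR and featureCounts on GRCm39, as their processing notes name these tools; versions and the strand setting are not given in the sources used here. Of 60676 entries, 3491 were blank in every mouse and 56629 of the remaining 57185 matched GENCODE M39. The test covered 13452 genes, those exceeding 10 counts in 6 or more of the 10 mice, after symbols of the Gm and Rik kind were removed. Genotypes were compared with edgeR 4.0.16 (R 4.3.3; TMM scaling, quasi-likelihood test, Benjamini-Hochberg adjustment over all genes tested, threshold 0.05), with DESeq2 1.42.0 and limma-voom (limma 3.58.1), other scalings and count filters, robust dispersion, a replicate block, halved counts and each mouse left out in turn as alternatives. CPM are TMM-scaled, and log2 CPM carry a prior count of 2. Correlations had 100000 permutations (scipy 1.17.1). The code was tested on simulated counts. The members and lists were chosen with earlier results of these data known. Genes were named by rule: the 10 genes, called genes of the 5 lists, the 8 genes most like the mean z-score, Rrad, Csrp3 and cell type markers. Of the other marker lists, macrophage sums ran from 87.4 to 125 CPM in MLPKO and from 110 to 186 in cRADΔ/Δ-MLPKO, neutrophil sums from 1.33 to 2.29 and 1.48 to 4.73, lymphocyte sums from 1.39 to 3.57 and 1.56 to 5.24, and fibroblast sums from 1003 to 1511 and 898 to 1520 (Dpt called higher). Labels do not say whether the libraries came from separate litters or days, so p-values measure the spread between these mice. No 2 libraries of the same genotype agreed within counting noise (20 pairs; lowest chi-square over degrees of freedom 31.8).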

Additional observations from a re-analysis of the deposited data

Results flagged for a closer look

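Of 28 groups of 5 mice examined, 3 had a mouse that stood far from the others of its genotype, by a gap of more than 0.71 of the group's range. Chance alone does so in about 1 in 20 groups of independent, normally distributed values. These groups share mice and hold CPM on a linear scale, so that rate is only a guide here. Junb was 37.5 CPM in MLPKO mouse 2, against 21.4 in the next highest and 15.8 in the lowest MLPKO mouse (gap over range 0.746). Atf3 was 18.1 CPM in cRADΔ/Δ-MLPKO mouse 2, against 8.51 in the next highest and 4.75 in the lowest mouse of that genotype (0.719), a level that 3 MLPKO mice also had. Nr4a1 was 26.9 CPM in MLPKO mouse 1, against 31.5 in the next lowest and 33.3 in the highest MLPKO mouse (0.719). The high Fos and Egr1 values of MLPKO mouse 2 did not pass this measure.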

How the results depend on the processing

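No alternative gave a call for any of the 10 genes, with adjusted p from 0.287 (Atf3) to 1.00 (Fos), and DESeq2 gave no adjusted p for Fosb. In 99 of 99 other alternatives and in 90 of 100 fits that left out 1 mouse, the log2 fold changes kept their sign. The 10 reversals were Fos (0.11), Junb (0.062), Jund (0.057) and Egr1 (0.13) without MLPKO mouse 2, Jund (0.053) without cRADΔ/Δ-MLPKO mouse 1, Jun (−0.022) without cRADΔ/Δ-MLPKO mouse 2, and Ier2 without MLPKO mouse 1 (−0.058), 3 (−0.014) or 4 (−0.011) or cRADΔ/Δ-MLPKO mouse 3 (−0.0053); their cause was not tested.

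Leaving out each mouse in turn gave log2 fold changes from −0.84 to 0.11 for Fos, −0.50 to −0.06 for Fosb, −0.02 to 0.22 for Jun, −0.31 to 0.06 for Junb, −0.10 to 0.06 for Jund, −0.41 to 0.13 for Egr1, −0.92 to −0.25 for Atf3, −0.06 to 0.15 for Ier2, −0.36 to −0.12 for Nr4a1 and −0.38 to −0.01 for Myc. It gave 47 to 826 called genes in all (35 to 531 lower, 12 to 295 higher), 0 to 6 called genes of the wider lists, and 0 to 7 of the 8 most alike genes again. The median percentile of the spread, 86.5, ran from 84.2 to 88.5, was 85.7 with a prior count of 0.5 and 86.5 with RLE scaling.

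DESeq2 called 1298 of all genes (786 lower, 512 higher) in place of 369. Of the wider lists it called 11 in place of 2, limma-voom 1, upper quartile scaling 4 and robust dispersion 1. By Spearman rho 1 of the 8 most alike genes was again among the first 8. By canonical transcript length, chosen after seeing the data, Fosb was 0.121 and Nr4a1 11.1 CPM per kb. The counts of gene pairs and of larger SDs without MLPKO mouse 2 were also chosen after seeing the data.

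The labels do not say whether the mouse numbers pair the mice, and the correlations over 5 numbers cannot settle it. Deviations of mice with the same number correlated from −0.0442 to 0.152, over 0.1 in 1 of 5 numbers, and 2 of 5 MLPKO mice correlated best with their own number. With the replicate block 0 of the 10 genes were called, 281 of all genes (170 lower, 111 higher) and 2 of the wider lists, neither of them Arc (adjusted p = 0.0702) nor Map2k3 (0.0570). The block gave log2 fold changes of −0.21 for Fos, −0.12 for Egr1 and −0.38 for Atf3.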
